A study of Homo sapiens and Mus musculus with 20 samples.

Results

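The genes of 10 human histone deacetylases were examined in ATAC-seq peak lists of SW480 cells, namely HDAC1, HDAC2, HDAC3 and HDAC8 of class I, HDAC4, HDAC5, HDAC7 and HDAC9 of class IIa, HDAC10 of class IIb and HDAC11 of class IV. A region belonged to a gene when it overlapped the GENCODE gene body or the 5 kb on either side of it, and regions were made by merging the peaks of all 12 SW480 libraries. This gave 229 of the 252173 regions in the genome, 27 at class I genes and 202 at genes of classes II and IV. HDAC4, on the minus strand of chromosome 2 at 239048168 to 239401654 (353 kb), held 100 of them and HDAC9, on the plus strand of chromosome 7 at 18086949 to 19002416 (915 kb), held 47, whereas HDAC3 held 3 and HDAC10 held 5.

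SW480 is an established human colorectal adenocarcinoma line. One experiment compared 3 libraries treated with 10 mM sodium propionate (NaPr) with 3 untreated libraries, and the other compared 3 libraries treated with 1 mM sodium butyrate (NaBu) with 3 untreated libraries of its own, after 12 to 16 h and from 50000 viable cells a reaction. The experiments carry different dates, so compound, dose and date cannot be told apart, and their values are set side by side without a comparison. The labels number the replicates of a group without saying that they came from separate cultures, and p-values therefore measure the spread between these libraries, which may be technical.

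Histone deacetylases remove acetyl groups, and some of them longer acyl groups, from lysines of histones and other proteins, a change that commonly goes with more compact chromatin and lower transcription. The class I enzymes HDAC1, HDAC2 and HDAC3 are nuclear and work inside corepressor complexes, HDAC8 works outside them, and the class IIa proteins have little catalytic activity of their own and are carried between nucleus and cytoplasm by phosphorylation and 14-3-3 binding. Butyrate and, more weakly, propionate inhibit zinc-dependent deacetylases, and the comparisons here describe the chromatin of the genes that encode these enzymes in cells given these short-chain fatty acids.

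Accessibility was expressed as a percentile rank, the place of a region's strongest summit by −log10 p among all regions that had a peak in the same library. Here 100 is the strongest peak by p and values just above 0 are the weakest. Rank does not follow tags between regions, so it does not order different regions by openness. In NaBu-treated replicate 3, an HDAC4 region at rank 0.068 had 74 tags at its summit and an HDAC8 region at rank 56.2 had 41. A rank of 0 means that no peak passed the limit of that list, which was capped by p near the same number of summits in every library, and it does not show closed chromatin. Changes are given in percentile points, treated minus untreated, with their standard error from limma and p-values adjusted by Benjamini-Hochberg over all tested regions of the genome. They are not fold changes. Because the NaBu-treated lists held more peaks than the untreated ones, 108287 to 111016 regions against 96813 to 102797, the same regions were also ranked over all merged regions of the genome, with regions without a peak sharing the lowest place. The median over all tested regions was 2.92 points on the first scale and 0.39 points on the second after NaBu, and 0.53 and 0.10 points after NaPr. In bulk chromatin, fewer cells with an open region and less opening per cell cannot be told apart.

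The sequences at which the main differences described here lay are given first, from the plus strand of GRCh38, as windows of 201 bases centred on the summit of the region, with the AP-1 consensus TGANTCA, searched on both strands, in capitals. They comprise the HDAC4 intron region that ranked lower under both compounds, the HDAC9 intron region that had a peak only after treatment in the NaBu experiment, the intron regions of HDAC2 and HDAC8 that rose after NaBu, the HDAC5 intron region that rose under both compounds, and the promoter summits of HDAC7 and HDAC5.

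HDAC4 intron, chr2:239326890-239327090: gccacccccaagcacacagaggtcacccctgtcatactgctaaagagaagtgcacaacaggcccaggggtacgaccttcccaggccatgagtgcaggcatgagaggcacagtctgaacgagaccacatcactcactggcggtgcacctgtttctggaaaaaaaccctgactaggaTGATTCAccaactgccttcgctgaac
HDAC9 intron, chr7:18623457-18623657: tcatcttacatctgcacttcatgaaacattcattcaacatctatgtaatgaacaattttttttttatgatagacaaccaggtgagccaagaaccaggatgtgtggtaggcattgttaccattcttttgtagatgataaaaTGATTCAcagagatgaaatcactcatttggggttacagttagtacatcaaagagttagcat
HDAC2 intron, chr6:114007618-114007818: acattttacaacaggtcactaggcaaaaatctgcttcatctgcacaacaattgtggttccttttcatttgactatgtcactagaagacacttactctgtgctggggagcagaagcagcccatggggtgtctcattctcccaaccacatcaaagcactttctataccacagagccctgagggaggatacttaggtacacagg
HDAC8 intron, chrX:72479787-72479987: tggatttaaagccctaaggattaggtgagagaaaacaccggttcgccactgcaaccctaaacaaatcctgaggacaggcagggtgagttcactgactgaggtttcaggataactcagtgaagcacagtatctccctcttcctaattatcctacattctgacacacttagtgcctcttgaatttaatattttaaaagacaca
HDAC5 intron, chr17:44097190-44097390: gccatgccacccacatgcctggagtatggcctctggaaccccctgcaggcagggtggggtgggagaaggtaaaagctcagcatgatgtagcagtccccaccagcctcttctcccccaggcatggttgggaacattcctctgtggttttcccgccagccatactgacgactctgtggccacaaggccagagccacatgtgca
HDAC7 promoter summit, chr12:47820688-47820888: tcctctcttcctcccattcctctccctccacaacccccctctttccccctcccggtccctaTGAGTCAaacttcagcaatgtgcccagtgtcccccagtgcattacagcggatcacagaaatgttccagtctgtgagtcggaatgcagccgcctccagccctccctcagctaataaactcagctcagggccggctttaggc
HDAC5 promoter summit, chr17:44123727-44123927: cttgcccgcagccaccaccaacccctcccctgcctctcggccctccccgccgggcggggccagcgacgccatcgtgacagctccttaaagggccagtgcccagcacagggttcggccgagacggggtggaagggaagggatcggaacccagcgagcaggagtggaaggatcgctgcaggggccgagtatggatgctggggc

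AP-1 is the dimer of FOS and JUN family proteins. The HDAC4, HDAC9 and HDAC7 windows each held 1 match to its consensus and the other 4 held none. Over the genome, 16.3% of the 252173 summit windows held a match, and 25 of the 229 windows at deacetylase genes (10.9%) did. Among the windows of regions that ranked higher after NaBu, 5 of 26 at deacetylase genes and 25.9% over the genome held one. A match in such a window is a description of its letters, not evidence of binding.

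All 10 promoters, taken as the region over the start of the canonical transcript, had a peak in all 12 libraries. The promoter of HDAC4 ranked 94.1 to 98.4 and that of HDAC3 92.7 to 99.3 over the 12 libraries, next to each other at the top of the order with ranges that overlapped. HDAC9 had the lowest promoter, at 40.1 to 71.3, and the promoters of HDAC1, HDAC2, HDAC5 and HDAC7 lay close together with medians between those of HDAC10 and HDAC3. The HDAC8 promoter stood at 61.0 to 72.2 in the NaPr experiment and at 85.5 to 90.5 in the NaBu experiment, a gap that was also present between their untreated libraries. Some promoter regions also have the start of another gene inside them or within 1 kb. These are RELL2 at HDAC3, HDAC2-AS2 at HDAC2, HDAC4-AS1 at HDAC4, HDAC11-AS1 at HDAC11 and ENSG00000285547 at HDAC8, and ATAC-seq carries no strand to separate them.

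**Figure D1:**
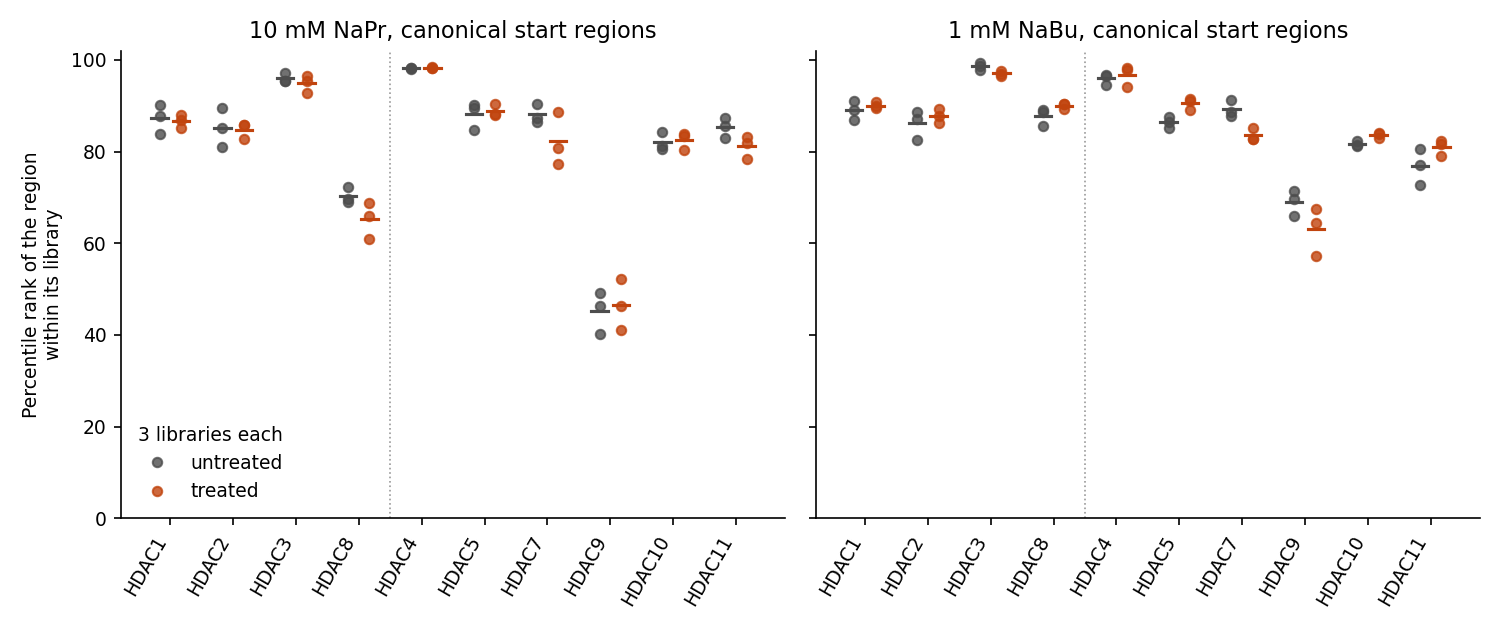
Percentile rank of the promoter region of each of the 10 genes (x axis) in each library (y axis, 0 to 100), with a panel for each experiment, 1 point a library and bars at the group means. The HDAC7 points of the NaBu-treated libraries (82.7 to 85.2) lie below the untreated ones (87.7 to 91.3), and HDAC9 is lowest in both panels.

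As examples of a promoter that was called in neither experiment and of one that was called after NaBu, the 250 bases before the RefSeq start (GRCh38.p14, read in the direction of the gene) are given for HDAC1 and for HDAC7, with matches to the GC box GGGCGG, the element that SP1 binds, and to CCAAT in capitals on either strand.

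HDAC1, plus strand, chr1:32291833-32292082: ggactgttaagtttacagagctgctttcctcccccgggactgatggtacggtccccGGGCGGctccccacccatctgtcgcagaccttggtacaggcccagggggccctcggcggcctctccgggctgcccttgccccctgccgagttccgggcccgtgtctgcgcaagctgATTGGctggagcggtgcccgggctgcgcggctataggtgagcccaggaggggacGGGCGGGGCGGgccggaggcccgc
HDAC7, minus strand, chr12:47819904-47820153: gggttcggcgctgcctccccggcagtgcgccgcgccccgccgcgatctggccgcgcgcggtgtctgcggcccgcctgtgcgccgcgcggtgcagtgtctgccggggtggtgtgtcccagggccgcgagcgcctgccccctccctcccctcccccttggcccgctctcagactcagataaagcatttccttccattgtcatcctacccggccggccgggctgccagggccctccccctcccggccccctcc

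HDAC1 held 3 GC boxes, of which a pair overlaps, and 1 CCAAT in these bases and HDAC7 held none of either, at a GC content of 71.6% and 75.6%. In the RefSeq table, which adds 50 bases after the start, 45.0% of 35116 promoters held a GC box and 34.6% a CCAAT. Of the 17 entries for 9 of the 10 deacetylase genes, 6 held a GC box and 5 a CCAAT.

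At class I genes, few regions differed after either compound. Of 18 class I regions tested after NaPr, 0 were called in either direction by limma (1 higher and 1 lower at an unadjusted p under 0.05), whereas 3.1% of the 124067 regions tested in the genome were called higher and 2.22% lower. After NaBu, 2 of 21 class I regions were called higher and 0 lower by limma (1 lower at an unadjusted p under 0.05), against 24% and 13.1% of 123730 regions, so both shares were below the background. A region was tested when it had a peak in at least 2 of the 6 libraries of the experiment. Of all 229 regions, 107 met this in the NaPr experiment, 44 had a peak in 1 library and 78 in none, and in the NaBu experiment 153 met it, 26 had a peak in 1 library and 50 in none. Ranked over all merged regions, the class I calls were 1 higher and 1 lower after NaPr, against a background of 5.18% and 3.81%, and 2 higher and 0 lower after NaBu, against 15.8% and 12.5%. By the number of tags at the summit, recovered from the fold and the p of each peak and divided by the background of the library, 1 of 15 class I regions with a peak in all 6 libraries was higher after NaBu, at HDAC2, and 2 were lower, at HDAC1 and HDAC3, where 24% and 28.8% of 72559 regions were. The median change of class I regions was 1.09 points after NaPr and 1.56 points after NaBu. The 19 class I regions not called after NaBu changed by a median of 3.82 points in size with a median standard error of 4.31, so changes of a few points were not detectable at most of them.

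HDAC1 and HDAC2 are closely related and form the catalytic core of the SIN3, NuRD and CoREST complexes. The HDAC1 promoter ranked 86.9, 89.2 and 91.1 in the untreated and 89.9, 89.4 and 90.7 in the NaBu-treated libraries. The groups overlapped, and the change of 0.94 ± 1.15 (SE) points had a 95% interval of -1.70 to 3.58. After NaPr the HDAC1 promoter changed by -0.59 points, with an interval of -4.30 to 3.13. HDAC2 was similar, its promoter changing by 1.60 points after NaBu (interval -2.16 to 5.35) and -0.46 after NaPr (interval -5.01 to 4.10).

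An intron region of HDAC2 was the class I region with the smaller of the called rises. It lies at chromosome 6, 114007059 to 114008119, 36.4 kb upstream of the canonical start within a longer annotated transcript, and HDAC2-AS2 overlaps it. Its rank was 89.2, 93.9 and 90.6 in the untreated and 96.5, 96.6 and 96.5 in the NaBu-treated libraries. The groups did not overlap, all treated libraries standing above all untreated ones, and the rise of 5.27 ± 1.12 (SE) points had an adjusted p of 0.00763 (limma) and of 0.0258 when all merged regions were ranked. It was not called when peaks were ranked by fold enrichment (1.30 points, adjusted p 0.328). In the NaPr experiment it ranked 87.2, 85.2 and 87.4 untreated and 86.1, 88.5 and 89.9 treated, groups that overlapped (adjusted p 0.527). Groups did not overlap at any region called at the 10 genes, 26 higher and 34 lower after NaBu and 1 and 9 after NaPr. At a called region, the lack of overlap therefore comes with the call and adds no support to it.

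HDAC3 is the deacetylase of the NCOR corepressor complex, and its promoter was among the highest ranked. In the NaBu experiment it ranked 99.3, 98.8 and 97.7 untreated and 97.7, 96.8 and 96.6 treated. The groups met near 97.7 without overlapping, and the change of -1.55 ± 0.60 (SE) points did not pass the test (interval -2.92 to -0.19, adjusted p 0.0731, limma), although it did without untreated replicate 3 (adjusted p 0.0416). By summit tags over background the same promoter fell by 0.52 on the log2 scale (adjusted p 2.5e-04, limma). After NaPr its rank changed by -1.13 points (interval -3.47 to 1.21).

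HDAC8, an X-linked class I enzyme known for deacetylating the cohesin subunit SMC3, had the largest rise of any deacetylase region on the main rank scale. The region, which ENSG00000285547 also overlaps, lies in an intron at chromosome X, 72478941 to 72480462, 93.1 kb downstream of the start, and it had no peak in any library of the NaPr experiment. In the NaBu experiment its rank was 0, 12.1 and 18.3 untreated and 62.6, 68.1 and 56.2 treated. The summit held 15 and 19 tags in the untreated libraries with a peak and 50, 59 and 41 in the treated ones, and the groups did not overlap. The rise was 52.2 ± 6.82 (SE) points (adjusted p 0.00107, limma), but it was not called when all merged regions were ranked (40.1 points, adjusted p 0.145, where the HDAC9 region at 18623352 rose by 78.2) or when only the 50000 strongest intervals of each library were kept (adjusted p 0.111). The HDAC8 promoter changed by 2.29 points after NaBu (interval -0.27 to 4.86) and by -5.09 after NaPr (interval -13.1 to 2.92), neither of them called.

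Genes of classes II and IV had most of the differences. After NaPr, 1 of their 89 tested regions was called higher and 9 lower, which is 1.12% and 10.1% beside the 3.1% and 2.22% of all regions. After NaBu, 24 of 132 were called higher and 34 lower, 18.2% and 25.8% beside 24% and 13.1%. Ranked over all merged regions, the calls were 4 higher and 11 lower after NaPr and 13 higher and 36 lower after NaBu, and the calls shared by both scales numbered 1 and 8 after NaPr and 13 and 28 after NaBu. Of the 10 NaPr calls, 0 held in all 6 fits that left out a library. Without untreated replicate 1, 4 of them held, without treated replicate 1, 3, without treated replicate 2, 1, and without untreated replicate 2, untreated replicate 3 or treated replicate 3, 0. The NaPr calls of the whole genome also fell in these fits, to 2.09% higher and 0.657% lower without untreated replicate 1, at most 0.553% and 0.663% without any other, and 0 by limma without treated replicate 3 (26369 regions at an unadjusted p under 0.05). Of the 60 NaBu calls at all 10 genes, 38 held in all 6. The median change was -3.17 points after NaPr and -5.33 points after NaBu, whereas all tested regions had positive medians. The filter admits a region that has peaks in treated or in untreated libraries alone, and such a region could pass only by differing. The p of a region described here as without a peak in a whole group is therefore given for completeness and lends it no support. Over regions with a peak in all 6 libraries, 2 of 51 were called higher and 8 lower after NaPr, beside 5.64% and 4.73% of 65178 regions, and 16 of 66 were called higher and 17 lower after NaBu, beside 26.9% and 14.5% of 72559 regions. Without HDAC4, which held most of the lower NaBu calls, 15 of 60 were called higher (25%) and 11 lower (18.3%) after NaBu with a median change of -1.40 points, and 1 of 49 was higher and 7 lower after NaPr with a median of -1.94.

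Peaks were gained, that is present in all 3 treated and in none of the untreated libraries, at 2 class II and IV regions after NaPr and lost at 4, where 2.95% and 1.5% of tested regions were gained and lost over the genome. After NaBu, 6 were gained and 14 lost, beside 6.41% and 3.72%. HDAC4 held most of the NaBu losses, 10 of the 14. Without HDAC4, 5 regions were gained and 4 lost after NaBu, and 2 and 2 after NaPr. The number of class II and IV regions with a peak was 80 to 93 in the untreated and 71 to 73 in the treated libraries of the NaPr experiment, and 111 to 117 and 97 to 100 in those of the NaBu experiment, and neither pair of ranges overlapped. In the NaBu experiment HDAC4 alone went from 64 to 66 down to 47 to 51. HDAC9 went from 13 to 19 up to 21 to 23, and the ranges of HDAC5, HDAC7, HDAC10 and HDAC11 met or overlapped. The fall is therefore not read as a trait of these classes. Over the whole genome, the number of regions with a peak was higher in every NaBu-treated library than in any untreated one.

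**Figure D2:**
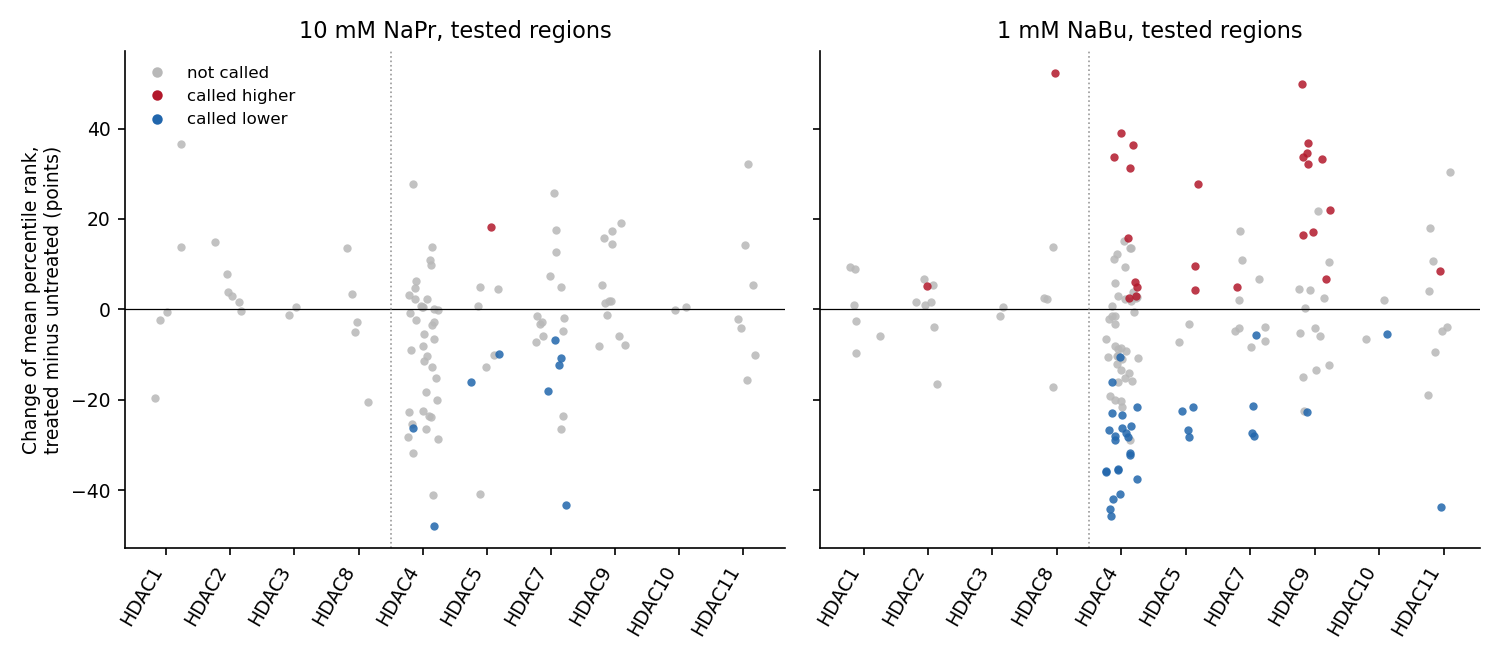
Change in mean percentile rank, treated minus untreated (y axis, percentile points), of every tested region of each gene (x axis) after NaPr and after NaBu, with 1 point a region, called rises in red and called falls in blue. Most called HDAC4 regions lie below 0 after NaBu (23 lower, 9 higher) and most called HDAC9 regions above 0 (10 higher, 1 lower).

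HDAC4, a class IIa corepressor that binds MEF2 transcription factors, held most of the regions that ranked lower after NaBu. In that experiment, 23 of its 72 tested regions (31.9%) were called lower and 9 (12.5%) higher, and the median change was -10.6 points. Some of these regions lie close together, so the count is not one of separate units. The region at 239274663 to 239275697 was called higher by rank, and its neighbours that begin at 239275800, 239276373 and 239276768 were called lower. Ranked over all merged regions, 23 were lower and 2 higher, and 20 of the lower calls were shared by both scales. Among the 33 regions with a peak in all 6 libraries, 11 ranked lower and 7 higher, beside 14.5% and 26.9% of all such regions, and by summit tags over background 19 were lower and 3 higher, beside 28.8% and 24%. HDAC4 regions with a peak numbered 64 to 66 in the untreated and 47 to 51 in the NaBu-treated libraries, and 38 to 45 and 30 to 31 in the NaPr experiment. After NaPr, 2 of 40 tested HDAC4 regions were called lower and 0 higher by limma (6 lower and 3 higher at an unadjusted p under 0.05), with a median change of -7.31 points, and 2 of the 21 with a peak in all 6 libraries were lower. Over the genome 2.22% were lower and 3.1% higher after NaPr, and 4.73% were lower among regions with a peak in all 6 libraries. The 2 calls are too few to set HDAC4 apart from these shares.

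The lower HDAC4 regions lay in the part of the gene nearer to the start. Of 46 regions tested at 100 to 200 kb downstream of the start, 18 were lower and 4 higher after NaBu, and of 14 within the first 100 kb, 5 were lower and 1 higher. Beyond 200 kb, 0 of 11 were lower by limma, also at an unadjusted p under 0.05, and 4 were higher. Over the genome, 13.1% of tested regions were lower and 24% higher after NaBu. The part beyond 200 kb rests on 11 regions, and the difference with position was not tested. The 23 lower regions lay 1.01 to 178 kb from the start, 19 of them in introns, with a median length of 330 bases and falls of 10.6 to 45.6 points. Of these, 8 had no peak left in any treated library, and 12 had no peak in any library of the NaPr experiment. The other 11 included 9 that could be tested there, all of which had a negative change after NaPr, 2 of them called. This was not particular to HDAC4. Over all 10 genes, 18 of the regions lower after NaBu could be tested after NaPr, and all 18 had a negative change. Of 15 such regions higher after NaBu, 14 had a positive change. The share of such agreement over the genome is not given here.

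The HDAC4 region at chromosome 2, 239326729 to 239327520, in an intron 73.9 kb from the start, was the highest ranked of the HDAC4 regions called in both experiments. After NaBu its rank was 68.9, 70.4 and 68.0, compared with 93.8, 94.8 and 95.6 untreated, and the summit held 110, 116 and 114 tags compared with 451, 313 and 390. All treated libraries stood below all untreated ones on both measures, and the change of -25.7 ± 1.27 (SE) points had an adjusted p of 0.000162 (limma). After NaPr its rank was 54.5, 58.1 and 50.4, compared with 83.8, 79.8 and 78.0 untreated. The groups again did not overlap, and the change was -26.2 ± 3.79 points (adjusted p 0.00623, limma). The NaPr call did not hold without untreated replicate 2 (adjusted p 0.0571), untreated replicate 3 (0.0635) or treated replicate 3 (0.0623), whereas the NaBu call held without each library in turn.

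A second HDAC4 intron region, at chromosome 2, 239273552 to 239273779 and 127 kb from the start, lost its peak in both experiments. It ranked 50.3, 49.9 and 43.3 in the untreated libraries of the NaPr experiment and 8.94, 36.7 and 32.8 in those of the NaBu experiment, and it had no peak in any of the 6 treated libraries. The changes were -47.8 points after NaPr (adjusted p 0.0297, limma) and -26.1 points after NaBu (adjusted p 0.0256). Of the 6 fits that left out a library, each call held only without untreated replicate 1 (adjusted p up to 0.0884 after NaPr and 0.0831 after NaBu), and with no treated peak in either experiment the region entered both tests through its untreated libraries.

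The largest falls at HDAC4 after NaBu were at 3 short intron regions. That at 239252058 to 239252408, 149 kb from the start, ranked 35.3, 45.5 and 56.1 untreated and 0, 0 and 0.068 treated, a change of -45.6 ± 6.60 (SE) points (adjusted p 0.00155, limma). Its summit held 136, 106 and 148 tags untreated and 74 in treated replicate 3, the only treated library with a peak. A rank near 0 there was thus not an absence of signal. That at 239253323 to 239253611, 148 kb from the start, ranked 37.9, 45.9 and 41.7 untreated and had no treated peak, a change of -41.8 points (adjusted p 0.000939). These 2 regions are neighbours, and both ended at or near rank 0, so each entered the test through its untreated libraries. That at 239222835 to 239222990, 178 kb from the start, ranked 14.4, 61.9 and 56.4 untreated and also had no treated peak, a change of -44.2 points (adjusted p 0.0181), but its call held only without untreated replicate 1 and reached an adjusted p of 0.0735 without treated replicate 2.

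Some HDAC4 regions rose after NaBu. At 239202425 to 239203294, 198 kb from the start, the rank was 0, 0 and 2.38 untreated and 44.1, 26.2 and 48.9 treated, a rise of 39.0 points (adjusted p 0.00354, limma). At 239236108 to 239236927, 165 kb from the canonical start and near the start of another HDAC4 transcript, the rank was 0, 9.69 and 13.5 untreated and 59.3, 30.0 and 43.2 treated, a rise of 36.5 points (adjusted p 0.0103). The groups did not overlap at either region. The region at 239202425 passed the filter only through its treated libraries, so its p and its lack of overlap lend it no support. Neither rise was called when all merged regions were ranked, with adjusted p of 0.0814 and 0.218, and only 2 of the 9 rises at HDAC4 were called on both scales.

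The HDAC4 promoter was called in neither experiment. It ranked 96.6, 94.6 and 96.8 untreated and 98.3, 97.7 and 94.1 after NaBu, and 98.0, 98.3 and 98.2 untreated and 98.2, 98.4 and 98.1 after NaPr. The groups overlapped in both experiments, and the changes were 0.73 points after NaBu (interval -1.91 to 3.36) and 0.09 points after NaPr (interval -1.32 to 1.50).

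**Figure D3:**
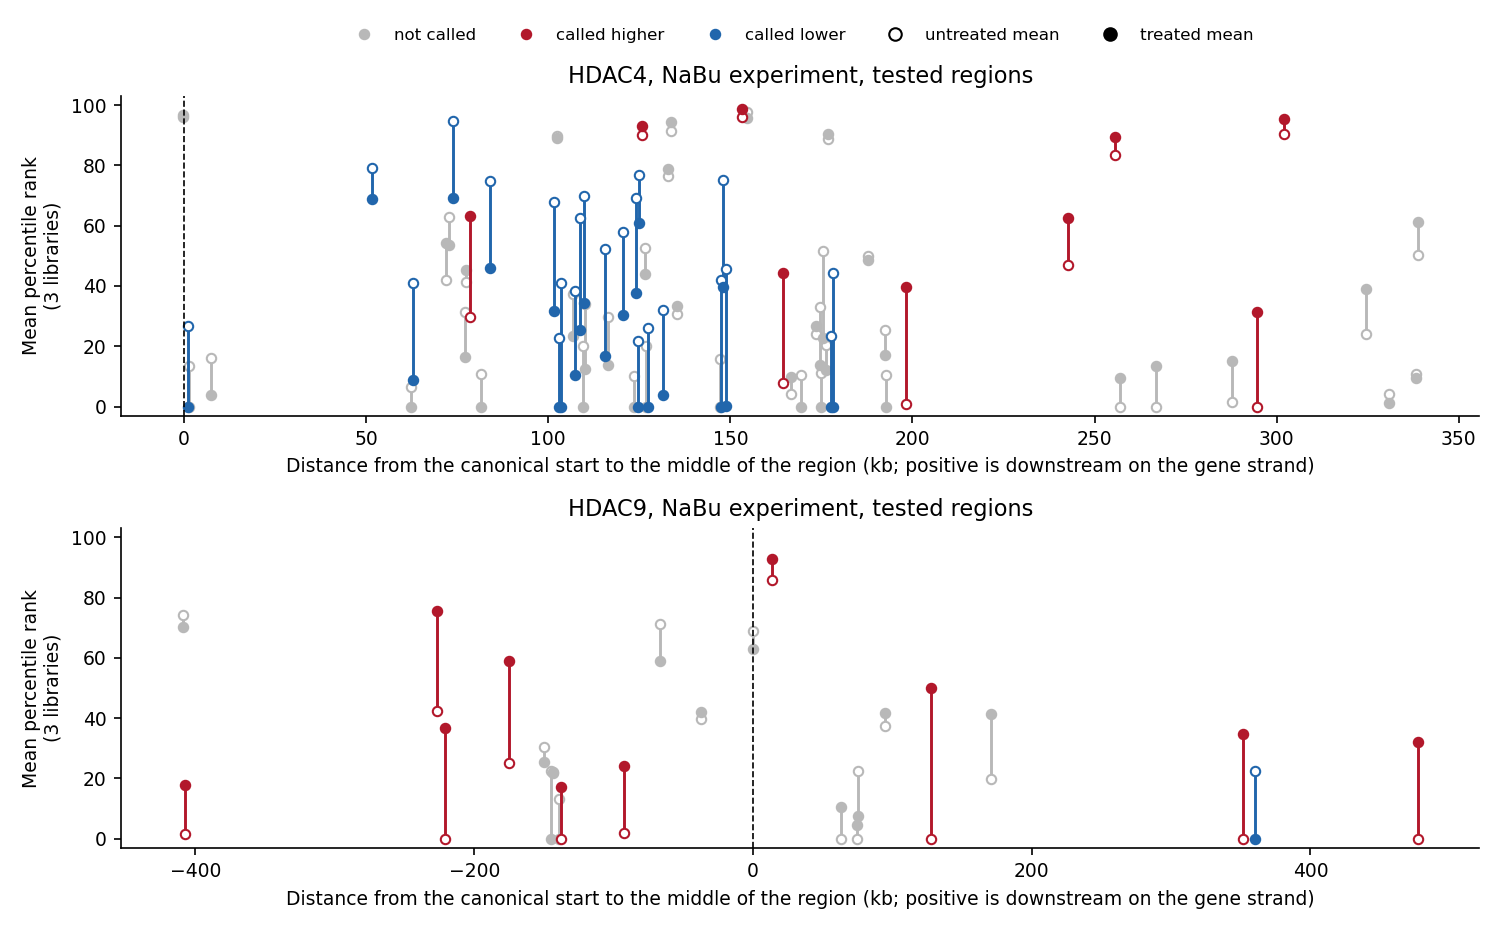
Mean percentile rank over the 3 untreated (open circles) and the 3 NaBu-treated libraries (filled circles) of each tested HDAC4 and HDAC9 region (y axis, 0 to 100), joined by a line, against the distance of the region from the canonical start (x axis, kb, positive downstream). Lower HDAC4 regions (blue) lie between 1.01 and 178 kb, and the higher HDAC9 regions (red) are spread on both sides of the start.

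HDAC9 encodes several isoforms, one of them lacking the deacetylase domain, from many starts over its long gene. After NaBu, 10 of its 24 tested regions (41.7%) were called higher and 1 (4.17%) lower, where 24% and 13.1% of all regions were. Ranked over all merged regions, 8 were higher and 2 lower, and 8 of the rises were called on both scales. Its median change was 5.57 points, and regions with a peak numbered 13 to 19 in the untreated and 21 to 23 in the NaBu-treated libraries. Among the 11 regions with a peak in all 6 libraries, 3 ranked higher and 0 lower by limma (5 passed an unadjusted p of 0.05), beside 26.9% and 14.5% of all such regions, and by summit tags over background 4 were higher and 3 lower, beside 24% and 28.8%. After NaPr, 0 of 12 tested HDAC9 regions were called by limma (2 higher and 0 lower at an unadjusted p under 0.05), and 1 was called higher when all merged regions were ranked. Over the genome 3.1% were called higher and 2.22% lower after NaPr by the main ranking, so 0 of 12 was near the background. Regions with a peak numbered 8 to 12 untreated and 11 to 13 treated, which overlapped.

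The largest rise at HDAC9 was in an intron at chromosome 7, 18623352 to 18624256, 128 kb downstream of the canonical start. It had no peak in the untreated libraries and ranked 49.7, 58.9 and 41.0 after NaBu, with 35, 47 and 30 tags at the summit. The rise of 49.9 ± 6.31 (SE) points had an adjusted p of 0.000952 (limma) and of 0.000385 when all merged regions were ranked, in tests that the region entered only through its treated libraries. In the NaPr experiment 1 treated library had a peak there, at rank 23.1, and the other 5 had none.

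Another HDAC9 intron region, at 18274270 to 18274652 and 221 kb upstream of the canonical start within longer transcripts, also had no untreated peak and ranked 25.2, 44.3 and 41.1 after NaBu (36.9 ± 6.37 points, adjusted p 0.00313, limma), so it too entered the test through the treated libraries alone. The region at 18268436 to 18269342, 227 kb upstream, had peaks in both groups, ranking 34.4, 42.8 and 49.6 untreated and 76.2, 74.5 and 75.7 treated (33.2 points, adjusted p 0.00117). All 6 libraries had a peak there, and the groups did not overlap. Of the 10 rises, 8 were in introns, 5 were gained peaks, and 7 were at regions with no peak in the NaPr experiment.

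The HDAC9 promoter had a negative change after NaBu that did not pass the test. It ranked 65.9, 71.3 and 69.7 untreated and 57.1, 67.5 and 64.5 after NaBu, groups that overlapped, and the change was -5.92 points (interval -13.8 to 1.99, adjusted p 0.205, limma). By summit tags over background it fell by 0.41 on the log2 scale (adjusted p 0.0198). After NaPr the change was 1.35 points with an interval of -17.2 to 19.9, which is too wide to show its direction.

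HDAC5 and HDAC7, the class IIa genes of shorter length, had regions that moved under both compounds. Over all genes, 86 regions could be tested in both experiments, 63 were called in at least 1 of them, and 7 in both, 1 higher and 6 lower, each with the same direction. Those 7 lay at HDAC4, HDAC5 and HDAC7. No share of the genome called in both is given beside them, so they are not read as a trait of these genes. The experiments have separate controls, and the values are given side by side because dose and date differ.

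The only region higher in both was an HDAC5 intron region at chromosome 17, 44097058 to 44098439, 25.9 kb from the start. It ranked 65.4, 61.2 and 54.7 untreated and 80.9, 80.0 and 75.5 after NaPr (18.3 ± 3.71 points, adjusted p 0.0223, limma). In the NaBu experiment it ranked 30.5, 36.9 and 15.7 untreated and 54.0, 59.0 and 53.1 treated (27.6 ± 6.69 points, adjusted p 0.0131). The treated libraries stood above the untreated ones in both experiments. Without treated replicate 2 the NaBu call was lost (adjusted p 0.0522), and the NaPr call held only without untreated replicate 1 (adjusted p 0.0342) and reached 0.0978 without treated replicate 2.

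Close to it, an HDAC5 intron region at 44095456 to 44096410, 27.7 kb from the start, moved down. Its rank was 89.2, 83.5 and 83.5 untreated and 69.7, 73.8 and 64.7 after NaPr (-16.0 points, adjusted p 0.0132, limma), and 66.7, 57.5 and 49.1 untreated and 45.2, 23.9 and 19.8 after NaBu (-28.1 points, adjusted p 0.0257). A coding exon region of the gene at 44083511 to 44083908, 39.9 kb from the start, ranked 88.2, 83.2 and 83.1 untreated and 73.1, 77.3 and 74.5 after NaPr (-9.87 points, adjusted p 0.0295, limma), and 57.7, 59.9 and 64.2 untreated and 36.0, 42.5 and 23.5 after NaBu (-26.6 points, adjusted p 0.0101). Opposite calls thus stood within the same gene under both compounds. Both NaPr calls were lost without any 1 library (adjusted p up to 0.081 and 0.0917). The NaBu call of the intron region held only without treated replicate 1 or untreated replicate 3 (adjusted p up to 0.0999 without untreated replicate 1), and that of the exon region held throughout. In all, HDAC5 had 1 higher and 2 lower of 9 regions after NaPr, beside 3.1% and 2.22% of all tested regions. After NaBu it had 3 higher and 4 lower of 9, beside 24% and 13.1%. With 9 regions these counts are not read as a trait of the gene.

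The HDAC5 promoter was called higher after NaBu. It ranked 86.5, 87.5 and 85.2 untreated and 89.1, 91.5 and 91.1 treated, without overlap, a rise of 4.19 ± 1.03 (SE) points (adjusted p 0.0138, limma). The rise did not pass on the other scales, where it was 1.32 points with an adjusted p of 0.0502 when all merged regions were ranked and 0.0065 on the log2 scale of summit tags over background (adjusted p 0.965). It was also lost without treated replicate 2 (adjusted p 0.0533) or treated replicate 3 (0.0532). After NaPr the HDAC5 promoter changed by 0.71 points (interval -2.74 to 4.16).

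HDAC7, a class IIa deacetylase, was the gene whose promoter was called lower. Over all promoters of protein-coding genes, 9.54% of 12876 were called higher and 20.5% lower after NaBu, and 0.834% and 5.63% of 13189 after NaPr. The HDAC7 promoter region, chromosome 12, 47819077 to 47821615, ranked 88.6, 91.3 and 87.7 untreated and 82.7, 85.2 and 82.7 after NaBu. The treated libraries all stood below the untreated ones, and the change of -5.67 ± 1.29 (SE) points had an adjusted p of 0.0101 (limma), of 0.0081 when all merged regions were ranked and of 3.07e-05 by summit tags over background, on which it fell by 0.65 on the log2 scale. It was not called when peaks were ranked by fold enrichment (adjusted p 0.304). After NaPr it ranked 90.5, 87.4 and 86.5 untreated and 88.7, 80.7 and 77.3 treated, groups that overlapped, and the change of -5.88 points was not called (interval -11.4 to -0.32, adjusted p 0.196).

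Around the HDAC7 gene, 5 of 19 regions were lower and 0 higher after NaPr by limma (7 lower and 2 higher at an unadjusted p under 0.05), and 4 of 14 were lower and 1 higher after NaBu, beside 2.22% lower and 3.1% higher of all regions after NaPr and 13.1% and 24% after NaBu. The region 37.6 kb from the start, at 47781881 to 47782675 in the downstream flank where SLC48A1 overlaps it, ranked 41.8, 52.2 and 35.9 untreated in the NaPr experiment and 25.0, 31.5 and 25.6 in the NaBu experiment. No treated library of either experiment had a peak there, and the changes were -43.3 points after NaPr (adjusted p 0.0411, limma) and -27.4 points after NaBu (adjusted p 0.00312). It entered both tests through its untreated libraries alone, and the NaPr call was lost in all 6 fits that left out a library (adjusted p up to 0.105 without treated replicate 2).

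An HDAC7 intron region at 47825154 to 47825694, 5.52 kb upstream of the canonical start, ranked 87.7, 87.6 and 83.9 untreated and 75.9, 72.1 and 74.4 after NaPr (-12.3 ± 2.02 points, adjusted p 0.0101, limma). In the NaBu experiment it ranked 37.6, 38.3 and 45.0 untreated and 21.7, 11.4 and 24.0 treated (-21.3 points, adjusted p 0.027). The groups did not overlap in either experiment, although the untreated libraries of the experiments stood far apart. The NaPr call held only without untreated replicate 1 or treated replicate 1 (adjusted p up to 0.0741 without untreated replicate 2), and the NaBu call only without treated replicate 1 or 3 (adjusted p up to 0.0755 without untreated replicate 3). At 47797282 to 47798334, 22.1 kb from the start, the rank was 77.2, 78.6 and 71.3 untreated and 57.8, 57.7 and 57.2 after NaPr (-18.1 points, adjusted p 0.0246), a call that was lost in all 6 fits that left out a library (adjusted p up to 0.123 without untreated replicate 2), and this region was not called after NaBu.

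**Figure D4:**
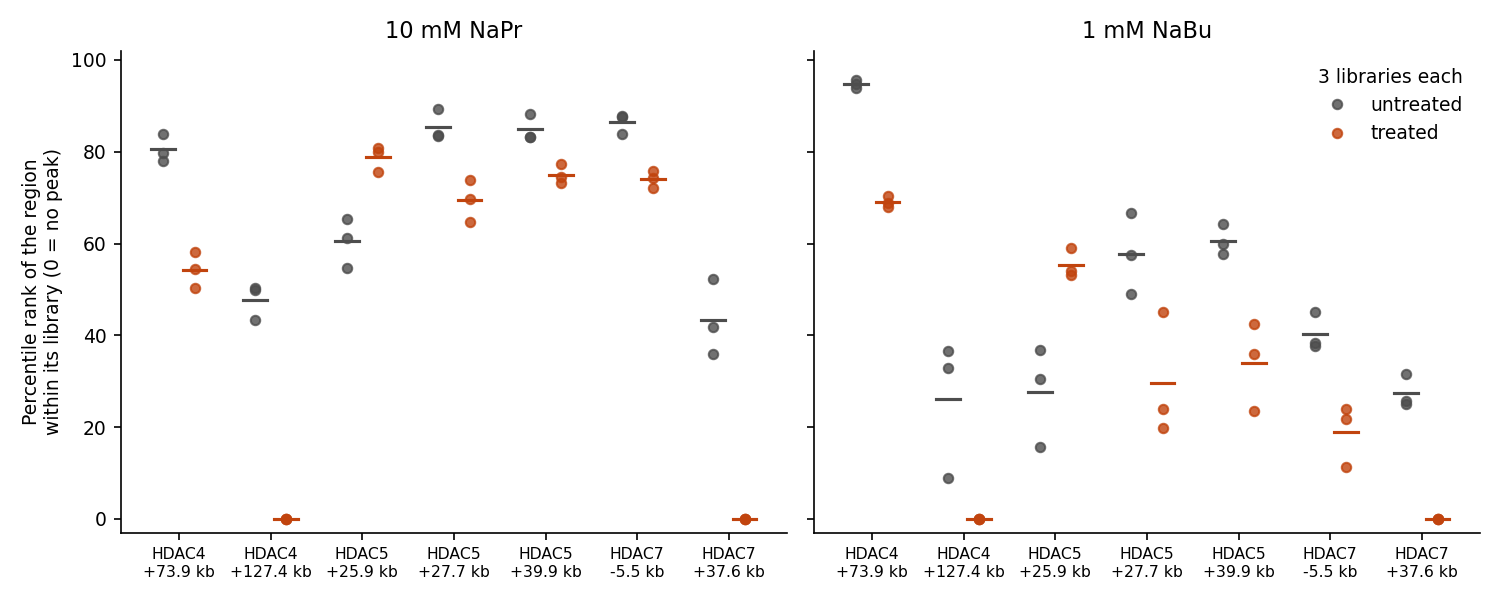
Percentile rank (y axis, 0 to 100) in each library of the 7 regions called in both experiments, named by gene and distance from the canonical start in kb, with 1 point a library, bars at the group means and a panel for each experiment. The HDAC5 region at 25.9 kb is higher in the treated libraries of both experiments and the other 6 are lower.

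HDAC10, which acts mainly on polyamines, has the shortest gene. Its promoter ranked 81.4, 81.2 and 82.2 untreated and 83.0, 84.0 and 83.9 after NaBu, which did not overlap, but the change of 2.03 points was not called (interval -0.54 to 4.61, adjusted p 0.184, limma). The 1 HDAC10 region called, at chromosome 22, 50244171 to 50246016, also overlaps MAPK12 and TUBGCP6 and cannot be assigned to 1 gene. It ranked 92.4, 90.1 and 93.7 untreated and 88.1, 85.3 and 86.8 after NaBu, a change of -5.37 ± 1.17 (SE) points (adjusted p 0.00845). After NaPr the promoter changed by 0.52 points (interval -3.48 to 4.53), and 0 of 2 tested regions were called by limma, also at an unadjusted p under 0.05. Over the genome 3.1% were called higher and 2.22% lower after NaPr.

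HDAC11, the only class IV enzyme, removes fatty acyl groups. Its promoter ranked 80.6, 72.6 and 77.1 untreated and 79.0, 81.6 and 82.4 after NaBu and was not called (4.18 points, interval -0.84 to 9.20), and after NaPr it changed by -4.15 points (interval -8.27 to -0.03, adjusted p 0.214, limma). Called changes lay outside the promoter. A region in the downstream flank at chromosome 3, 13509549 to 13510168, 29.6 kb from the start, ranked 44.2, 47.9 and 38.7 untreated and had no peak after NaBu, a change of -43.6 ± 5.40 (SE) points (adjusted p 0.00089). A region near an internal start at 13496157 to 13496933 ranked 72.1, 71.8 and 72.9 untreated and 81.3, 79.1 and 81.8 treated, a rise of 8.42 ± 1.62 points (adjusted p 0.00493). The first entered the test through its untreated libraries alone, whereas the second keeps a peak in all treated libraries.

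Where the regions lay within genes was also counted. Of the 229 regions, 149 were in introns, 10 at canonical starts, 36 within 1 kb of another annotated start, 8 in coding exons, 4 in noncoding exons or UTRs, 6 in the upstream and 16 in the downstream flank. After NaBu, 24 of 99 tested intron regions were lower and 19 higher, beside 13.1% and 24% of all tested regions, and among the 10 canonical starts 1 was lower and 1 higher, beside 20.5% and 9.54% of all promoters. Peaks present in all 6 libraries of the NaBu experiment and in none of the NaPr experiment were found at 15 deacetylase regions, 9 of them at HDAC4 and 4 at HDAC9, and the opposite at 2. Over the genome, 5.48% and 1.99% of 167303 regions had these patterns. They differ between the experiments with treated and untreated libraries alike, and their part in the counts above was not tested.

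**Figure D5:**
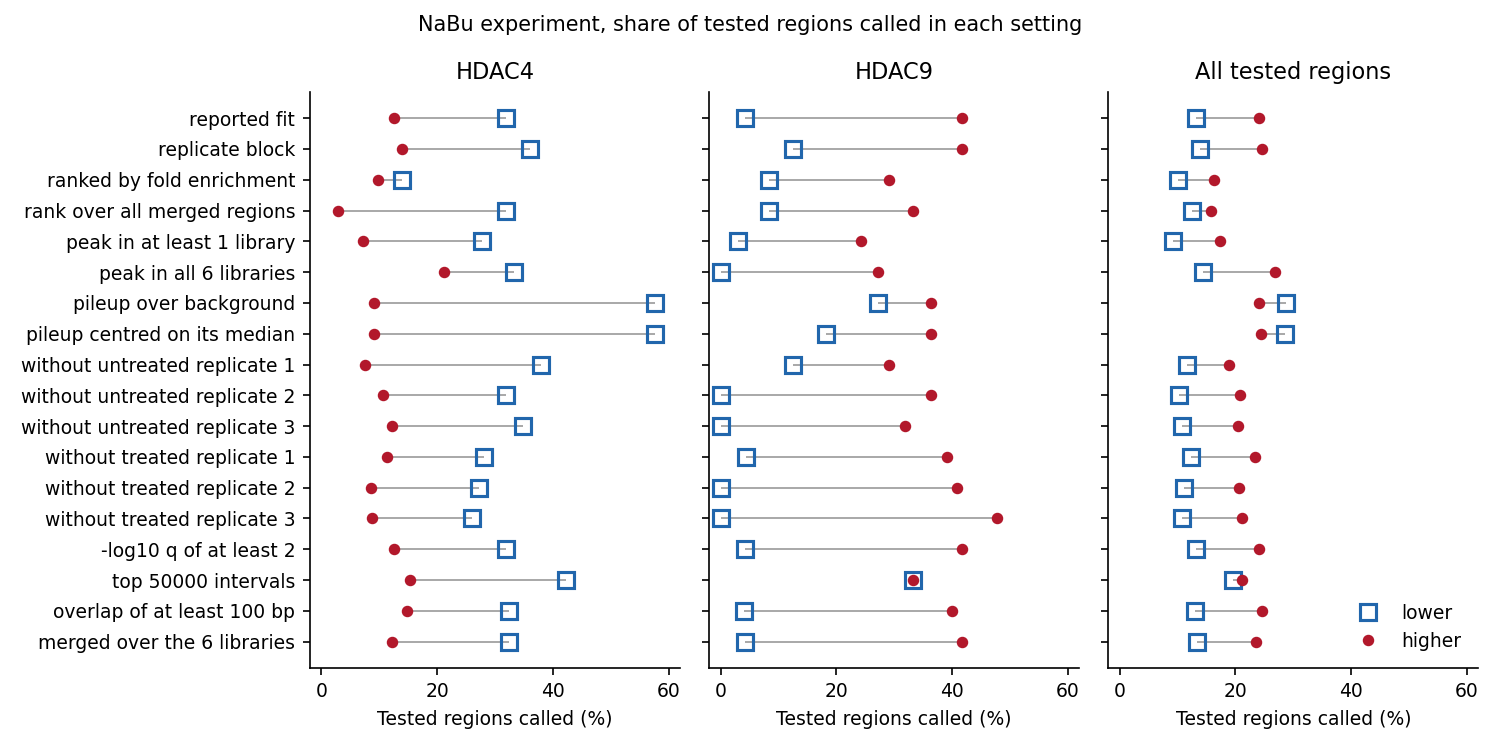
Share of tested regions called higher (red points) and lower (blue squares) after NaBu (x axis, percent) at HDAC4, at HDAC9 and over all regions, for the reported fit and each alternative (y axis). At HDAC4 the share of lower calls is the larger throughout, and at HDAC9 that of higher calls, except for the tie of 2 and 2 regions when only the 50000 strongest intervals of each library were kept.

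The direction of the HDAC4 and HDAC9 calls after NaBu was compared over all alternatives. HDAC4 had more lower than higher calls in 17 of 17 alternatives, with 10 to 26 lower and 2 to 10 higher. HDAC9 had more higher than lower calls in 16 of 17, the exception being a tie of 2 and 2 when only the 50000 strongest intervals of each library were kept. All regions of the genome had more higher calls in 15 of the 17 and more lower calls in 2, so the HDAC9 direction was close to the background. The alternatives refit the same libraries and are not independent of each other. Over all regions of the genome the share of NaBu calls that were higher was 64.7% by the main ranking, 55.7% when all merged regions were ranked and 45.5% by summit tags over background, so the background against which these genes are read moved with the scale. For NaPr these shares were 58.3%, 57.6% and 92.4%, and 38.1% when tags were centred on their median.

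Promoters of 54 genes that encode sirtuins, subunits of deacetylase complexes, class IIa partners and class IIa kinases were read in the same way. After NaPr, 0 were called higher and 4 lower by limma (1 higher and 7 lower at an unadjusted p under 0.05), beside 0.834% and 5.63% of all promoters. After NaBu, 5 were higher and 7 lower, beside the 9.54% and 20.5% of all promoters. The 54 promoters as a whole were thus near the background after NaPr and had no excess of lower calls after NaBu. The NCOR and MiDAC lists, of 4 and 2 promoters, had the most lower calls after NaBu and do not stand for the whole set. Ranked over all merged regions, these were 0 and 2 after NaPr and 4 and 6 after NaBu. The list of the NCOR complex, that of HDAC3, had 2 of 4 promoters lower after NaBu, with a median change of -6.05 points where all promoters had -0.67. Its 2 lower members were TBL1X (-28.9 ± 4.29 points, adjusted p 0.00172), which helps exchange corepressors for coactivators, and NCOR1 (-7.73 ± 2.36, adjusted p 0.033), of which NCOR1 was not called when all merged regions were ranked (adjusted p 0.0741) and held only without treated replicate 1 or 3 (adjusted p up to 0.106 without untreated replicate 1).

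The MiDAC list, the mitotic deacetylase complex of HDAC1 and HDAC2, had both of its 2 promoters lower after NaBu on both rank scales. DNTTIP1 changed by -3.09 ± 0.77 (SE) points (adjusted p 0.015, limma) and MIDEAS by -4.05 ± 1.00 points (adjusted p 0.0142). The DNTTIP1 call was lost without untreated replicate 1 (adjusted p 0.0508), and that of MIDEAS held only without treated replicate 1 or untreated replicate 3 (adjusted p up to 0.0613). MIDEAS was also lower after NaPr, by a change of -4.80 points (adjusted p 0.0263), a call that held only without untreated replicate 1 (adjusted p up to 0.109) and not when all merged regions were ranked (adjusted p 0.0523).

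TBL1X was also lower after NaPr, ranking 76.1 ± 3.51 (SD, n = 3) untreated and 61.8 ± 1.46 treated (adjusted p 0.038, limma). SIRT7, a nuclear class III deacetylase, and YWHAH, a 14-3-3 protein, were lower after NaPr as well, by changes of -8.83 (adjusted p 0.0172) and -6.90 points (adjusted p 0.0395). These NaPr calls were lost in all 6 fits that left out a library for SIRT7 (adjusted p up to 0.0827) and YWHAH (up to 0.149), and that of TBL1X held only without untreated replicate 1 (up to 0.149). YWHAH was also lower after NaBu, by a change of -8.46 points (adjusted p 0.00308, limma). That call held in all 6 fits and when all merged regions were ranked (adjusted p 0.00239). SIRT7 was not called after NaBu (adjusted p 0.332). After NaBu, SIN3B, the scaffold of a class I complex, and MEF2A, a partner of class IIa enzymes, fell by 14.9 points (adjusted p 0.0337) and 12.8 points (adjusted p 0.0111). Promoters that rose after NaBu were led by CHD3, a NuRD remodeler, from 61.7 ± 6.71 (SD, n = 3) to 82.7 ± 0.17 (adjusted p 0.00204). RBBP7, a histone-binding subunit, and RCOR3, a CoREST paralog, rose by 10.7 and 2.57 points (adjusted p 0.0272 and 0.0346), but neither was called when all merged regions were ranked (adjusted p 0.133 and 0.123). Their calls, and that of SIN3B, held in 2 of 6 fits that left out a library each, without treated replicate 3 or untreated replicate 2 for RBBP7, treated replicate 3 or untreated replicate 1 for RCOR3 and treated replicate 1 or untreated replicate 3 for SIN3B, with adjusted p up to 0.084, 0.110 and 0.119 in the others.

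Markers were used to check the labelled cell type. Of 8 intestinal epithelial markers, 6 had a promoter peak in all 12 libraries and CDX1 had none, and of 8 markers of other cell types 6 had no promoter peak in any. The other 2, the collagen genes COL1A1 and COL1A2, had one in all 12 libraries and were higher after NaBu, by 9.57 points (adjusted p 0.000513, limma) and 27.4 points (adjusted p 0.00102). Among the epithelial markers, EPCAM changed by -6.90 points (adjusted p 0.00611, limma) and KRT8 by 5.05 points (adjusted p 0.00535) after NaBu, in opposite directions. The part of these markers in the deacetylase values was not tested. Depth was not known from the lists, which held 112145 to 144398 peak intervals a library in the NaPr and 108442 to 128955 in the NaBu experiment, and the lowest background of the lists, which scales with depth, was 0.936 to 2.35 tags in the former and 2.11 to 3.03 in the latter.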

How the data were processed

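ATAC-seq libraries of SW480 cells were analysed from the peak lists that the authors deposited, 1 for each of 12 libraries in 4 groups of 3. Per the submitters' processing notes, tools included bcl2fastq 2.17.1, cutadapt 1.9.1, Bowtie2 2.3.1 and MACS2 2.1.0, and the reads were aligned to GRCh38.p13. The deposited lists give, for each summit, the fold enrichment over background as a ratio, −log10 p and −log10 q, as the authors' peak caller wrote them for each library without pooling. The authors tested read counts with DiffBind, and reads and their totals were not analysed here, so depth per library is unknown and the precision of a rank rests on the spread between libraries. Lists were capped by p near the same number of summits in every library, so a rank of 0 depends on that limit. At most 0.796% of intervals were identical between replicates, and none was counted as a repeat.

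Intervals were merged over the 12 lists (at least 1 bp of overlap), assigned to GENCODE 44 genes and ranked within a library. Regions with a peak in at least 2 of 6 libraries were tested by limma 3.58.1 (R 4.3.3) with a mean-variance trend, treated against untreated within each experiment, two-sided, with Benjamini-Hochberg adjusted p under 0.05 as a call. The scripts were tested on simulated data. An exact permutation test of 3 against 3 libraries cannot fall below 0.1 and was not used. The members and gene lists were chosen with earlier results of these data known. The text names all 10 promoters, per experiment and class group the 4 called regions with the largest rise and the 4 with the largest fall, the 4 with the largest smaller change among those called in both experiments, and up to 3 list promoters per direction. NCOR1, MIDEAS, DNTTIP1, the NaBu values of YWHAH and SIRT7, the collagen genes, EPCAM, KRT8, the HDAC10 region, the HDAC11 region that rose, the HDAC9 region 227 kb upstream and the remaining 3 regions called in both experiments were added after their values were seen. Of the listed genes, 1 was left out of the lists and is not reported here. Promoter sequences came from RefSeq (GRCh38.p14) and window sequences from the GRCh38 reference. Replicate numbers are shared by the groups, but same-numbered libraries did not deviate together (correlations of 0.0049 to 0.031), so the fit has no replicate block.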

Additional observations from a re-analysis of the deposited data

How the results depend on the processing

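For class I genes after NaPr, where 0 regions were called, 2 were called when all merged regions were ranked or summit tags were centred on their median, and 1 with a peak in all 6 libraries, with −log10 q of at least 2, with the top 50000 intervals or with 50 kb flanks, and leaving out a library gave 0 throughout. For classes II and IV after NaPr (10), ranking by fold enrichment gave 0, a peak in at least 1 library 3 and centred summit tags 18, and leaving out a library gave 0 to 5. For class I after NaBu (2), 50 kb flanks gave 18, and leaving out a library 2 to 4, the highest without untreated replicate 1. For classes II and IV after NaBu (58), fold enrichment and centred summit tags gave 38, a peak in all 6 libraries 33 and the top 50000 intervals 27, and leaving out a library 44 to 52. Of the NaBu calls at classes II and IV, 1 rise had a negative change by fold enrichment, at the HDAC4 region 256 kb from its start (-0.42 points, adjusted p 0.896), and another was called lower by summit tags, at the HDAC4 region 126 kb from its start (-0.33 over background and -0.32 centred, on the log2 scale). Leaving out a library changed the sign of some promoter changes that were not called, at HDAC1, HDAC2, HDAC5, HDAC9 and HDAC10 after NaPr and at HDAC1, HDAC2 and HDAC4 after NaBu. Fold enrichment called 0 regions after NaPr over the whole genome, with 20921 at an unadjusted p under 0.05. After NaPr, the lowest counts of 0 came without untreated replicate 2, untreated replicate 3 or treated replicate 3. Of 43 single results, ranking by fold enrichment ended 11 calls and keeping regions with a peak in at least 1 library ended 3. The causes were not tested.

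With the replicate number as a block, 0, 10, 3 and 66 regions were called in these 4 groups, and 9 of the 10 NaPr and 57 of the 58 NaBu calls at class II and IV genes were kept. The HDAC7 region 37.6 kb from the start lost its NaPr call under the block (adjusted p 0.0570). By summit tags centred on their median, the promoters of HDAC3, HDAC7 and HDAC11 fell after NaPr by 0.33, 0.55 and 0.44 on the log2 scale (limma adjusted p 0.00674, 9.61e-05 and 0.00516), but not by tags over background (adjusted p 0.885, 0.417 and 0.669).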
